A study of Mus musculus with 6 samples.

Results

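Transcripts of 7 complement genes, C1qa, C1qb, C1qc, C3, C4b, Cfb and Cfp, were examined in single cells from inflamed mouse joints. The genes were taken by symbol, and all 7 were found among the 20394 genes of the count table. Monoarthritis had been induced in C57BL/6 mice, male and 8 weeks old when purchased, by immunization with 10 μg methylated bovine serum albumin in complete Freund's adjuvant and a knee injection of 100 μg of the same antigen on day 21 (antigen-induced arthritis, AIA). CD45+ cells were sorted from the digested joints on day 3 after the knee injection and sequenced in 6 samples. Of these, 2 were of PBS-treated (vehicle) animals and 4 of PEPITEM-treated animals (intraperitoneal peptide, 300 μg). All 6 samples came from arthritic joints, so no value for a joint without arthritis is given here. How many mice went into each sample was not given in the sources used here.

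The count table pools the samples. The barcode of each cell ends in a number from 1 to 6, and no label links these numbers to samples. PBS and PEPITEM were therefore not compared, the libraries were not treated as replicates of a treatment, and no p-value is given. For each gene the pooled level, the lowest, median and highest of the 6 barcode libraries, and the counting interval are reported instead.

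Complement is a cascade of plasma proteins that marks targets for uptake and attracts leukocytes. C1q, built from the A, B and C chains encoded by C1qa, C1qb and C1qc, recognizes immune complexes and dying cells and starts the classical pathway, in which C4 (C4b) is cleaved to help form the convertase that cleaves C3. Factor B (Cfb) supplies the protease of the alternative pathway convertase, and properdin (Cfp) stabilizes that convertase. The liver makes most of the C3, C4 and factor B of the plasma, whereas C1q comes largely from macrophages, and properdin from myeloid cells. In inflamed joints the local production of these proteins adds to what the blood brings.

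In the GRCm38 assembly, to which the reads were aligned (mm10), the C1q genes lie side by side on the minus strand of chromosome 4, within 18675 bases (C1qb at chr4:136880129-136886187, C1qc at chr4:136889804-136893065 and C1qa at chr4:136895917-136898803), and each principal transcript has 3 exons. C4b (chr17:34728380-34743882) and Cfb (chr17:34856374-34862518) share a region of chromosome 17 of 134139 bases. C3 lies on the same chromosome (chr17:57203970-57228136), and Cfp on the X chromosome (chrX:20925454-20931555). All positions are from GENCODE vM21, in which each gene is protein coding and on the minus strand. The sequence upstream of the start site is shown for C1qb, C3 and Cfp, which had their highest levels in different cells. The windows are the 250 bases before the RefSeq start (GRCm38.p6), written 5′ to 3′ on the strand of the gene, with matched motifs in capitals. RefSeq windows were found for 4 of the 7 genes, and that of C1qc is not shown because it lies partly inside the annotated gene.
C1qb (chr4:136886201-136886450): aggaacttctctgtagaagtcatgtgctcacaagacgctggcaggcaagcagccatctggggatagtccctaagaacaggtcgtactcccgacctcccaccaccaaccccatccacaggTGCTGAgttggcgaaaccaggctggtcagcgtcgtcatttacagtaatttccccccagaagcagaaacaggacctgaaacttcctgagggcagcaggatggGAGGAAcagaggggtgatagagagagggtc
C3 (chr17:57228137-57228386): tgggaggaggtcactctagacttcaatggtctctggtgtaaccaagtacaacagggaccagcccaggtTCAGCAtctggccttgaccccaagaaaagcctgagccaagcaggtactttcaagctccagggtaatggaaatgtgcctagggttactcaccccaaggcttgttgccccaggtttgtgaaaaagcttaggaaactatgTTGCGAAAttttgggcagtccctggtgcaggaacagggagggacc
Cfp (chrX:20931556-20931805): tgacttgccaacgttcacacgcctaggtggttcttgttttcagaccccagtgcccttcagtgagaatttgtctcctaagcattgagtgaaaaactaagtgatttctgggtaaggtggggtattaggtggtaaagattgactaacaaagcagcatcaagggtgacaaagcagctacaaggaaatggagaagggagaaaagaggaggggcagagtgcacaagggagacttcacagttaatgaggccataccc
On both strands 5 motifs were searched that were chosen after the sequences had been seen: TGCTGA (half-site of Maf factors), GAGGAA (core of the PU.1 site), TTGCNNAA (C/EBP site), TATAAA (a core promoter box) and the interferon response element. The C1qb window held TGCTGA, from 131 to 126 bases before the start, and GAGGAA, from 30 to 25 bases before it. The C3 window held TTGCNNAA from 45 to 38 bases before the start, and TGCTGA on the opposite strand from 182 to 177 bases before it. None of the 5 motifs matched in the Cfp window. Of 32851 RefSeq windows of this length, 16.1% held TGCTGA, 23.3% GAGGAA, 9.56% TTGCNNAA, 12.4% TATAAA and 2.98% the interferon response element, so a match is a description of these letters only.

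The table held 32953 cells, 2919 to 9345 per library, with library totals of 47273569 to 123367661 UMIs (unique molecular identifiers, which count RNA molecules) and a median of 11376 UMIs per cell. Between libraries, 138 barcode sequences occurred more than once, in 276 cells. Each cell was given a class by counting how many marker genes of that class it showed, with no complement gene among the markers. Classes are named after their markers with "-like", and 80.7% of the cells received a class. A cell that passed the gates of several lineages was left undecided (4508 cells, 13.7%), and most of these (2688 cells) showed the markers of macrophages together with those of neutrophils. Levels are given as CPM, the UMIs of the gene per 1000000 UMIs of the class. Because the kit tags the 3′ end of each molecule, levels were compared between genes without a correction for length. Ranges in parentheses are 95% intervals unless they are said to be over libraries. The intervals are exact and cover counting error only. A difference between classes is called separate when the libraries of the 2 classes did not overlap and the pooled levels differed at least 2-fold. The share of all genes at 10 CPM or more that met the same rule is given beside it. Calls made with a library left out have no such share beside them, because the shares were counted with all libraries. Leaving out a library can narrow the ranges over libraries but not widen them, so ranges part more easily. The members were chosen with earlier results of these data known, so counts of members beside a share are descriptions.

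C1q transcripts were concentrated in macrophages. Shares of UMIs describe the cells sorted for CD45, of which fibroblast-like cells were 0.34%, and not the sources of these transcripts in the whole joint. By UMIs, immature neutrophil-like (33.0%) and classical monocyte-like cells (19.1%) held the largest parts of C3. By level, C3 was highest in fibroblast-like (1288 CPM) and interferon macrophage-like cells (537 CPM). The C4b level was highest in fibroblast-like and then resident macrophage-like cells. Arg1 macrophage-like cells, at 15.5 CPM of C4b, were below the 17.4 CPM of all cells. The Cfb level was highest in interferon macrophage-like, then fibroblast-like and Arg1 macrophage-like cells, and low in resident and lining macrophage-like cells. By UMIs, cells past both macrophage and neutrophil gates held 42.5% of Cfb, macrophage-like cells 27.6% and classical monocyte-like cells 19.7%. Cfp was spread over the granulocyte, monocyte, macrophage and dendritic cell classes. The C3 level of mature neutrophil-like cells, 179 CPM, was below the 204 CPM of all cells. Cells past the macrophage gate, alone or with other gates, made up 24.6% of all cells and held 96.4% of the C1q UMIs (526651 of 546335 UMIs). Over the libraries this share ranged from 92.6% to 97.5%. This group was wider than the macrophage-like class, because the gate required 4 of 7 markers and the median classical monocyte-like cell showed 4. Macrophage-like cells with no other lineage held 52.2% of the C1q UMIs (52.1% to 52.3%; libraries 39.7%, 46.9% and 63.9% as lowest, median and highest). With classes taken from Leiden clusters instead of gates, this share was 91.5%. The clusters took in mixed cells. In cluster 4 (2045 cells), which counted as macrophage, 55.7% of the cells with a class were macrophage-like. Cells past both macrophage and neutrophil gates held a further 39.1% (libraries 29.0%, 44.0% and 52.9%), at 945 CPM of C1qa, 1059 CPM of C1qb and 643 CPM of C1qc. These cells had a median of 26480 UMIs, against 14410 in macrophage-like and 5844 in neutrophil-like cells. All 6 neutrophil markers were detected in the median cell of this kind, and the summed level of these markers was 7121 CPM (libraries 4864 to 9269), against 117 CPM in macrophage-like cells. The authors had removed doublets with DoubletFinder before deposit. Whether a cell past both gates was a pair of cells, or a macrophage or monocyte with neutrophil RNA, was not tested.

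**Figure D1:**
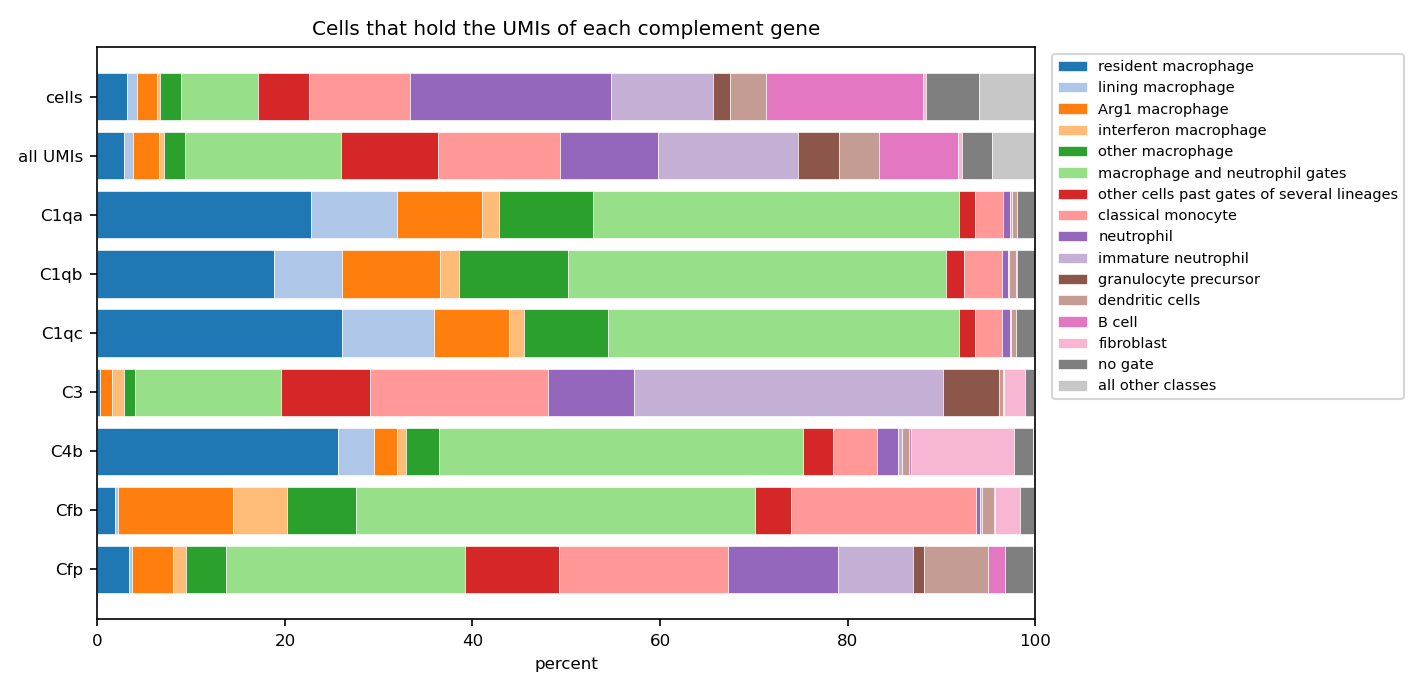
Horizontal stacked bars of the percent of all cells, of all UMIs and of the UMIs of each complement gene (x axis, percent) held by each class of cells, which do not overlap. Macrophage classes and cells past both macrophage and neutrophil gates filled most of the C1q bars, immature neutrophil-like cells formed the longest part of the C3 bar (33.0%), and fibroblast-like cells were 0.34% of the cells and 11.02% of the C4b bar.

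The C1q genes were the most abundant of the 7 in macrophages. In macrophage-like cells (2942 cells) C1qa was at 2271 CPM (2257 to 2285), C1qb at 2343 CPM (2329 to 2357) and C1qc at 1661 CPM (1649 to 1673). The libraries ranged from 1466 over 2318 to 2793 CPM for C1qa, from 1740 over 2426 to 2890 CPM for C1qb, and from 901 over 1726 to 1998 CPM for C1qc (lowest, median and highest). All 3 chains were detected in 83.9% of macrophage-like cells, and none in 8.84%. Against neutrophil-like cells (both neutrophil classes together), 4 of the 7 genes, C1qa, C1qb, C1qc and C4b, were separate and higher in macrophage-like cells, where 51.4% of 8376 genes were. Cfb was also separate without library 1 (144 times) or library 2 (109 times), and Cfp without library 1 (2.001 times). The C1qa level of neutrophil-like cells of both classes was 15.6 CPM (libraries 6.49 to 49.0), so that macrophage-like cells had 146 times as much (34.3 to 339 times in single libraries). C3 was the 1 of 7 genes separate and lower in macrophage-like cells (86.8 against 340 CPM), where 10.8% of genes were.

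Within the macrophages, the C1q level followed the subclass. Lining macrophage-like cells (332 cells; Fxyd2, Aqp1, Cx3cr1 and Sparc), which resemble the cells that cover the synovial surface, had the highest pooled level of C1qa, 3903 CPM (3846 to 3960). Their libraries ranged from 3319 over 3848 to 4596 CPM. Resident macrophage-like cells (1043 cells; Lyve1, Cd163, Folr2, Timd4 and Mrc1) followed with 3186 CPM (libraries 2577, 3179 and 3820 CPM). The libraries of these subclasses overlapped, although the lining subclass was higher in all 6 libraries for each of the 3 chains. The highest C1qa library of both was library 2, with 15 lining and 18 resident macrophage-like cells. Near the cut to another macrophage subclass lay 103 of the 332 lining and 106 of the 1043 resident macrophage-like cells. Arg1 macrophage-like cells (716 cells; Arg1, Spp1, Fn1 and Thbs1), with markers of macrophages newly recruited to an inflamed site, had 1316 CPM (libraries 1090, 1320 and 1775 CPM). Interferon macrophage-like cells (104 cells; Cxcl9, Cxcl10, Gbp2 and Nos2), present in 5 libraries with at least 5 cells, had 1542 CPM (libraries 1150 to 2208 CPM). Of these 104 cells, 51 were in library 4, 9 in library 1 and 8 in library 6.

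Resident and Arg1 macrophage-like cells did not overlap in C1qa or C1qc. Resident macrophage-like cells had 2.42 times as much C1qa (1.96 to 3.505 in single libraries) and 3.14 times as much C1qc (2.45 to 3.82), while C1qb was 1.72 times as high and overlapped. C1qa, C1qc and C4b were the 3 of 7 genes separate and higher in resident macrophage-like cells, against 8.97% of 8275 genes, and 0 were separate and lower, against 4.42%. C3 was separate and lower without library 2 (6.69 times) or library 3 (6.23 times), and Cfb without library 2 (8.37 times). Lining macrophage-like cells exceeded Arg1 macrophage-like cells in all 3 chains, by 2.97 times for C1qa, 2.02 times for C1qb and 3.60 times for C1qc. With C4b, 4 of 7 genes were separate and higher there, against 8.7% of 8330 genes. The C1qb call was lost without library 2 (1.95 times) or library 3 (1.90 times), which left 3 of 7.

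C1q was detected in nearly every resident or lining macrophage-like cell, but not in every Arg1 macrophage-like cell. All 3 chains were seen in 99.3% of resident, 98.8% of lining, 79.8% of interferon and 66.3% of Arg1 macrophage-like cells. No chain was seen in 0 of the 1043 resident cells (a count of 0 allows a share of up to 0.288%), and in 19.7% of the Arg1 cells. For comparison at 1 depth, cells with at least 5000 UMIs were thinned to that number and shallower cells were left out. This kept 994 of the 1043 resident, 325 of the 332 lining, all 104 interferon and 704 of the 716 Arg1 macrophage-like cells, in which C1qa was detected in 99.9%, 99.1%, 76.9% and 65.8%. The median resident macrophage-like cell had 85.6 C1q UMIs per 10000, and the median Arg1 macrophage-like cell 30.6, and the lower quartiles were 63.5 and 0.911. In T cell-like cells, which should lack C1q, C1qa was detected in 0.586% of cells at a median of 9220 UMIs, and in 0.434% of the 922 of 1024 cells kept after thinning. The authors had lowered ambient RNA with SoupX before deposit, so low levels, and ratios to them, are those left after that step. The table also stores entries of 0, which were read as no UMI. For C1qb, 7.62% of T cell-like cells had such an entry and 0.488% a UMI. Whether the entries came from that step was not tested. With entries of 0 read as detected, the T cell share of C1qa was 4.98%, against 71.2% of Arg1 macrophage-like cells and 12.95% of classical monocyte-like cells.

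The balance of the 3 chain transcripts also differed between macrophages. C1qa was the most abundant chain in resident macrophage-like cells, with 36.9% of their C1q UMIs (libraries 35.9% to 42.0%), against 33.1% for C1qb and 30.0% for C1qc. In Arg1 macrophage-like cells C1qb led with 43.6% (libraries 40.9% to 46.7%), against 34.6% for C1qa and 21.7% for C1qc. The libraries of resident and Arg1 cells did not overlap for the C1qb share (resident 30.6% to 33.9%) or for the C1qc share (resident 27.4% to 31.5%, Arg1 19.5% to 23.7%). They overlapped for the C1qa share. Lining macrophage-like cells had shares near those of the resident cells, with 38.2% C1qa, 32.8% C1qb and 29.1% C1qc.

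**Figure D2:**
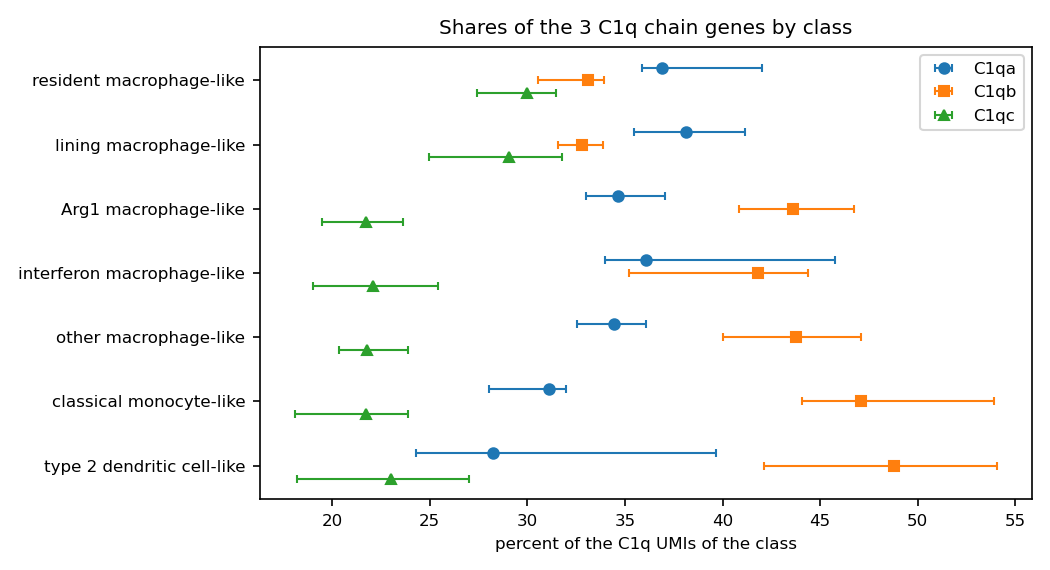
Share of each C1q chain gene (x axis, percent of the C1q UMIs of the class) in 7 classes, with points for the pooled share and bars from the lowest to the highest library with at least 100 C1q UMIs. C1qb and C1qc lay near each other in resident and lining macrophage-like cells, and apart in Arg1 macrophage-like (43.6% and 21.7%) and classical monocyte-like cells (47.1% and 21.8%).

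Classical monocyte-like cells (3536 cells; Ly6c2, Ccr2, F13a1, Vcan and Ms4a4c) had far less C1q, with 89.4 CPM of C1qa, and varied widely between libraries (22.0, 94.4 and 246 CPM). Macrophage-like cells exceeded them by 25.4 times for C1qa (6.85 to 67.1 times in the libraries). All 3 C1q genes and C4b were separate and higher in macrophage-like cells than in monocytes, against 11.1% of 8380 genes, and C3 was the 1 gene separate and lower, 3.44 times lower, against 7.1%. The C1qb share of monocyte C1q UMIs was 47.1% (libraries 44.1% to 53.9%), and 33.6% (libraries 30.1% to 38.8%) in neutrophil-like cells of the mature class. C1qa was detected in 9.28% of monocytes and in 6.76% after thinning, above the share in T cell-like cells. The median monocyte-like cell also showed 4 of the 7 macrophage markers, with a summed level of 714 to 1553 CPM over the libraries, and the part of this in the C1q level was not tested. Type 2 dendritic cell-like cells (498 cells), which present antigen to CD4 T cells, were at 67.7 CPM of C1qa (libraries 9.75, 69.1 and 132 CPM), and overlapped the monocytes. The C1q level of neutrophils depended on how cells with several lineages were assigned. C1qa in neutrophil-like cells of the mature class was 31.9 CPM with such cells left out, 137 CPM when each was given to its higher-scoring lineage, and 10.8 CPM in Leiden clusters.

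**Figure D3:**
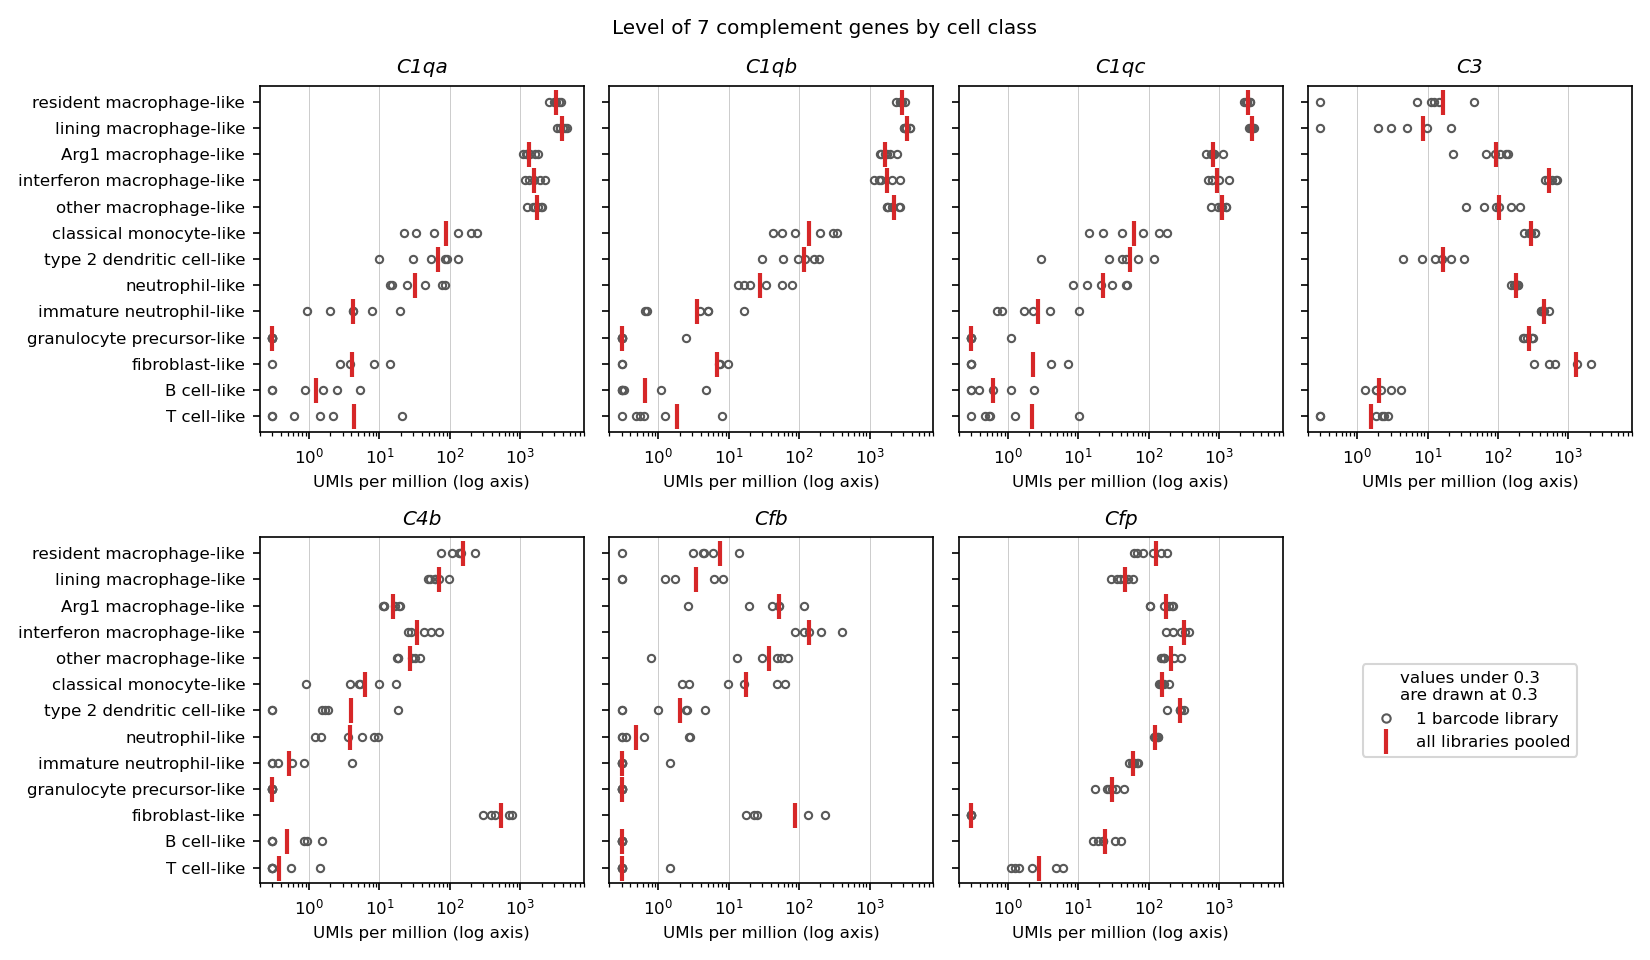
Level of each gene (x axis, CPM, log axis) in 13 classes of cells, with an open circle for each barcode library with at least 5 cells and a red bar for the pooled level. The C1q genes were at 826 CPM or more in every macrophage subclass, C4b was highest in fibroblast-like cells (534 CPM), C3 spread over fibroblasts, interferon macrophages, granulocytes and monocytes, and Cfp was found in all of the myeloid classes drawn.

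C4b, the gene of the C4 protein that follows C1 in the classical pathway, was highest in fibroblast-like cells and then in resident macrophage-like cells. Its counts are uncertain because the near-identical gene C4a was not analysed here and reads can be split between such copies. Fibroblast-like cells (112 cells; Col1a1, Col1a2, Col3a1, Dcn, Pdgfra and Lum) had 534 CPM (500 to 570), with 296, 439 and 763 CPM as the lowest, median and highest of the 5 libraries with at least 5 of these cells. All 6 fibroblast markers were detected in the median fibroblast-like cell, although the sort was for CD45+ cells, which fibroblasts are not. Resident macrophage-like cells had 156 CPM (150 to 163; libraries 74.8, 137 and 229 CPM). Fibroblast-like cells were 3.42 times higher (1.67 to 7.11 times in single libraries), and the libraries did not overlap. C3, C4b and Cfb were the 3 of 7 genes separate and higher in fibroblast-like than in resident macrophage-like cells, against 11.1% of 9496 genes. The Cfb call rested on few counts. Its lowest fibroblast library, library 6, had 17.3 CPM from 3 UMIs in 12 cells, against 14.1 CPM in the highest resident library. Library 4 also had 3 Cfb UMIs, in 7 fibroblast-like cells. The C1q genes and Cfp were the 4 separate and lower, against 17.1%. Lining macrophage-like cells had 69.5 CPM (48.7 to 97.7 over the libraries) and interferon macrophage-like cells 34.3 CPM (libraries 25.7 to 70.1). Arg1 macrophage-like cells were lowest of the named macrophage subclasses with 15.5 CPM (libraries 11.3 to 19.8).

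Resident and Arg1 macrophage-like cells lay further apart in C4b than in C1q. Resident macrophage-like cells had 10.1 times the level of Arg1 macrophage-like cells (3.78 to 20.0 times in the libraries), and lining macrophage-like cells 4.49 times (3.13 to 8.53). C4b was detected in 42.1% of resident macrophage-like cells and in 29.4% after thinning, against 10.1% and 5.26% of Arg1 macrophage-like cells. Of all C4b UMIs, macrophage-like cells held 36.5% (35.4% to 37.5%; libraries 23.8% to 57.3%), and resident macrophage-like cells alone held 25.7% of all C4b UMIs. Fibroblast-like cells held 11.02% (10.4% to 11.7%) and were 0.34% of the cells. Their C4b share ranged from 2.12% to 20.9% over the libraries, as did their number, from 3 to 41 cells. Without library 1, which had 39 of the 112 cells, it was 7.05%. A further 38.8% was in cells past both macrophage and neutrophil gates, which had 40.6 CPM.

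C3, on whose cleavage all complement pathways converge, was found in granulocytes, monocytes, interferon macrophages and fibroblasts. It was scarce in resident and lining macrophages, the subclasses with the highest C1q levels. Fibroblast-like cells had the highest pooled level, 1288 CPM (1235 to 1342), with a wide spread over 5 libraries (330, 642 and 2089 CPM). Library 1 set much of this value, which was 715 CPM without it. Fibroblast-like cells had 14.8 times the C3 of macrophage-like cells (5.33 to 31.4 times in single libraries), and 7.73 times without library 1. C3 and C4b were the 2 of 7 genes separate and higher in fibroblast-like than in macrophage-like cells, against 13.1% of 9482 genes, and 4 were separate and lower, against 19.4%. C3 was detected in 64.3% of fibroblast-like cells, with a median of 5.05 and an upper quartile of 14.5 UMIs per 10000. Interferon macrophage-like cells had 537 CPM (508 to 568; libraries 473, 586 and 696 CPM), and overlapped the fibroblasts. Immature neutrophil-like cells (3580 cells; Ltf, Camp, Ngp, Lcn2 and Cebpe) had 452 CPM (libraries 411, 428 and 527 CPM) and classical monocyte-like cells 299 CPM (libraries 231, 289 and 339 CPM).

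Among macrophages, interferon macrophage-like cells had 5.71 times as much C3 as Arg1 macrophage-like cells (94.1 CPM; libraries 23.1, 97.7 and 137 CPM), and the libraries did not overlap (3.44 to 10.3 times). C3 and C4b were the 2 of 7 genes separate and higher in interferon macrophage-like cells, against 1.38% of 7777 genes, and 0 were separate and lower, against 1.09%. The C4b call (2.22 times) was lost without library 5 (1.93 times), and Cfb was separate and higher without library 1 (3.33 times). Lining macrophage-like cells had 8.66 CPM of C3 (libraries 0 to 21.4) and resident macrophage-like cells 16.4 CPM (libraries 0 to 45.6). The lining subclass was separate from Arg1 macrophage-like cells and lower for C3 and Cfp, the 2 of 7 genes called in that direction, against 4.77% of genes. Cfb was also called without library 2 (17.3 times lower). The resident subclass was lower in C3 than the Arg1 subclass in 6 of 6 libraries, but the ranges over libraries overlapped. The pooled C3 level of lining macrophage-like cells was 4.35 CPM without library 4, and 25.1 CPM when all 4 lining markers were required.

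C3 was detected in 97.1% of interferon macrophage-like, 95.5% of immature neutrophil-like, 91.1% of classical monocyte-like, 49.0% of neutrophil-like and 8.44% of resident macrophage-like cells. After thinning to 5000 UMIs the shares were 83.7%, 86.4%, 69.2%, 49.95% and 4.23%. Thinning kept 3438 of the 3580 immature neutrophil-like, 3491 of the 3536 classical monocyte-like and 4420 of the 7075 neutrophil-like cells, so the neutrophil shares before and after thinning rest on different cells. In T cell-like cells the share was 1.27% and, after thinning, 0.651%. By UMIs, neutrophil-like cells of both classes, 32.3% of the cells, held 42.1% of the C3 transcripts (41.8% to 42.4%; libraries 10.9%, 39.5% and 50.8%). The immature class held 33.0% of the C3 transcripts, and the mature class, 21.5% of the cells, held 9.12%. Granulocyte precursor-like cells held 5.97%. Whether these precursors and the immature class came from the synovium or another part of the joint was not tested. Classical monocyte-like cells held 19.1% (16.6% to 21.4% over the libraries). Fibroblast-like cells held 2.26% (2.17% to 2.36%), with 16.8% in the highest library and 0.204% in the lowest. The fibroblast share was 0.806% when library 1 was left out.

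Within the granulocytes, the C3 level in CPM was highest in the immature neutrophils, and that of Cfp in the mature ones. C3 was at 279 CPM in granulocyte precursor-like cells (601 cells; Mpo, Elane, Prtn3, Ctsg and Ms4a3), at 452 CPM in immature neutrophil-like cells and at 179 CPM in neutrophil-like cells (7075 cells; Ly6g, Retnlg, Mmp8, Mmp9, Cxcr2 and Csf3r). The libraries of neutrophil-like cells (151, 180 and 192 CPM) lay below those of immature neutrophil-like cells, which were 2.53 times higher (2.26 to 2.74 times in single libraries). Cfp was at 29.9 CPM (libraries 17.3 to 44.1) in precursors, 59.6 CPM (libraries 53.3 to 71.5) in immature neutrophil-like and 125 CPM (libraries 121 to 135) in neutrophil-like cells. Neutrophil-like cells had 2.10 times the Cfp of immature neutrophil-like cells, and the libraries did not overlap. Near the cut to another gate of the lineage lay 937 of the 3580 immature neutrophil-like and 896 of the 7075 neutrophil-like cells. Of the 5 genes at 10 CPM or more in either class, C3 was the 1 separate and higher in immature neutrophil-like cells, where 23.5% of 6320 genes were, and Cfp the 1 separate and lower, where 14.1% were. All 3 C1q genes were also separate and lower without library 1 (8.12 to 9.004 times), and C1qb and C1qc without library 2 (8.55 and 9.20 times). C3 and Cfp were lower in the precursors than in immature neutrophil-like cells in 6 of 6 libraries, but neither reached a 2-fold difference, and 0 of these 2 genes were called where 7.72% of 7902 genes were separate and lower in the precursors and 38.4% separate and higher. Without library 2, Cfp was separate and 2.14 times lower in the precursors. Precursors had a median of 34539 UMIs per cell, against 17255 in immature neutrophil-like and 5844 in neutrophil-like cells. CPM is a share of these UMIs, and counts per positive cell followed another order. C3 had 10.5 UMIs per positive precursor-like, 9.60 per immature neutrophil-like and 2.61 per neutrophil-like cell, and Cfp 2.29, 2.00 and 1.76. Over all cells of each class, the median count was 9, 7 and 0 for C3, and 0, 1 and 1 for Cfp. Cfp was detected in 46.3%, 60.3% and 51.0% of these classes, and in 11.9%, 27.3% and 45.0% after thinning.

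**Figure D4:**
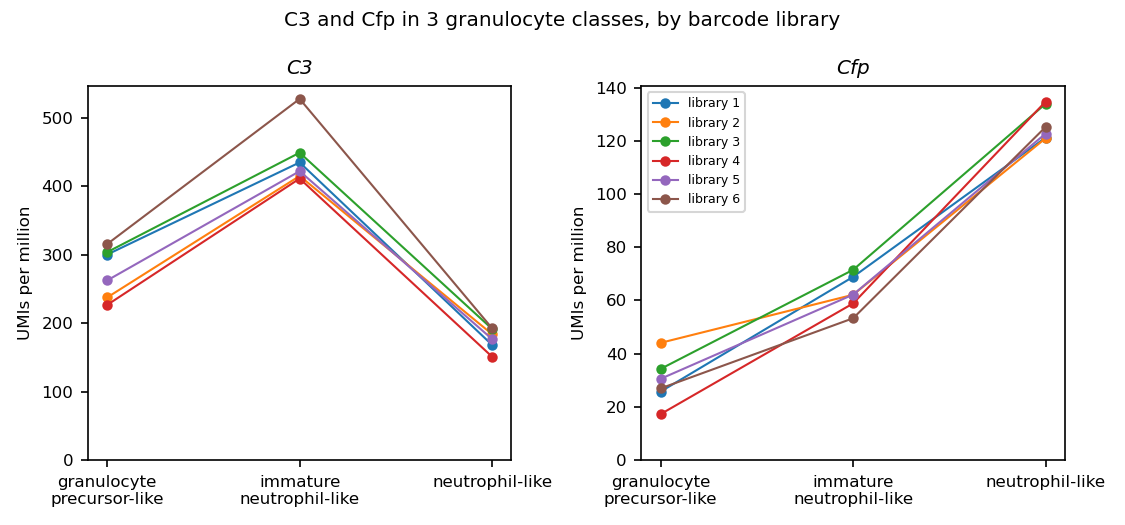
C3 and Cfp levels (y axis, CPM) in granulocyte precursor-like, immature neutrophil-like and neutrophil-like cells, with a line for each of 6 barcode libraries. In every library C3 was highest in the immature class, and Cfp was lowest in the precursors and highest in the neutrophil-like class.

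Cfb, which encodes the protease of the alternative pathway, was the scarcest of the 7 genes, with 5561 UMIs in all. Its level was highest in interferon macrophage-like cells, 138 CPM (123 to 154), with libraries of 87.4, 136 and 410 CPM, the highest from 9 cells of library 1. This level was 188 CPM without library 4, and 226 CPM when all 4 interferon macrophage markers were required. Fibroblast-like cells followed with 85.9 CPM (libraries 17.3, 25.02 and 228), and 52.1 CPM without library 1. Arg1 macrophage-like cells had 50.9 CPM (libraries 2.61, 45.6 and 118), and 33.4 CPM without library 1. Resident and lining macrophage-like cells were low, with 7.38 CPM (libraries 0 to 14.1; 4.36 CPM without library 4) and 3.47 CPM (libraries 0 to 8.19). Cfb was lower in resident than in Arg1 macrophage-like cells in 6 of 6 libraries, the reverse of C1qa and C4b, but the ranges overlapped. Cfb in fibroblast-like cells was 11.6 times the level of resident macrophage-like cells (1.77 to 38.7 times in single libraries), and 6.16 times without library 1.

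Between libraries Cfb varied more than the other genes. Over all cells its level ranged from 1.007 over 10.2 to 35.7 CPM, whereas C3 ranged from 156 over 173 to 254 CPM. In classical monocyte-like cells alone it ranged from 2.15 over 13.2 to 62.5 CPM (pooled 17.3 CPM; 11.5 CPM without library 1), and in macrophage-like cells from 1.79 over 25.4 to 57.8 CPM. Since the treatment of the libraries is not known, this spread was not set against treatment. Macrophage-like cells held 27.6% of the Cfb UMIs (26.4% to 28.8%; libraries 9.09%, 28.1% and 36.0%; 63.2% with Leiden clusters), and classical monocyte-like cells 19.7% (15.3% to 23.0% over the libraries). Cells past both macrophage and neutrophil gates held a larger part, 42.5%, at 29.3 CPM. Cfb was detected in 66.3% of interferon, 37.4% of Arg1 and 7.00% of resident macrophage-like cells, and in 38.5%, 17.8% and 2.62% after thinning. In T cell-like cells it was detected in 0.293%.

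Cfp, the gene of properdin, was found in the granulocyte, monocyte, macrophage and dendritic cell classes. Mast cell-like cells had 9.90 CPM, from 7 UMIs in 153 cells. The highest pooled level was in interferon macrophage-like cells, 321 CPM (299 to 345; libraries 176, 290 and 373), which overlapped type 2 dendritic cell-like cells at 275 CPM (libraries 180, 280 and 318). Macrophage-like cells as a whole had 163 CPM (libraries 114, 123 and 221), near the 154 CPM of classical monocyte-like cells (libraries 140, 153 and 196). Lining macrophage-like cells had the lowest level of the macrophage subclasses, 46.1 CPM (libraries 28.9, 42.0 and 59.1; 25.1 CPM when all 4 lining markers were required). Of the 6 genes at 10 CPM or more, Cfp was the 1 separate between resident (129 CPM; libraries 62.9 to 181) and lining macrophage-like cells, 2.80 times higher in the resident subclass, where 0.486% of 8236 genes were, and 0 genes were separate in the other direction, against 0.619%. C4b was also separate and higher in the resident subclass without library 4 (2.05 times) or library 6 (2.36 times). The lowest resident level of Cfp, 62.9 CPM, came from 18 cells of library 2 and lay near the highest lining level, 59.1 CPM. In fibroblast-like cells there were 0 Cfp UMIs, which allows up to 1.72 CPM (3 counts over the class), so that macrophage-like cells were at least 94.8-fold higher. This zero held for cells of a single lineage, since fibroblasts had 14.9 CPM when cells with several lineages were kept by the higher score, and 21.0 CPM in Leiden clusters.

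By UMIs, Cfp was shared between cells past both macrophage and neutrophil gates (25.5%), neutrophil-like cells of both classes (19.7%; 19.4% to 20.0%; libraries 3.47%, 17.4% and 32.1%; 34.4% with every cell scaled to the same total), classical monocyte-like cells (18.1%) and macrophage-like cells (13.7%). Type 2 dendritic cell-like cells were 1.51% of the cells and held 4.98%. Their Cfp was higher than in classical monocyte-like cells in 6 of 6 libraries, by 1.78 times, although the ranges overlapped and 5.3% of genes were separate in this direction. C3 was 18.2 times lower there (16.5 against 299 CPM; 37.2 CPM in Leiden clusters), the 1 of 6 genes separate and lower, against 5.26% of 8096 genes. Among B cell-like cells (5519 cells) Cfp was at 23.7 CPM (libraries 16.0 to 40.5), above the 2.79 CPM of T cell-like cells. The cells with the mature B cell marker Ms4a1 had 52.2 CPM (libraries 37.6 to 72.9), and those without it 2.43 CPM (libraries 1.32 to 4.06), where 5.25% of 8645 genes were separate in this direction and 6.89% in the other. This split was made after the values had been seen. The other 6 genes were below 3 CPM in both of these B cell groups.

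The fixed list, as reported here, held 35 further complement genes, of which 33 were in the table, and 23 of these reached 10 CPM in at least 1 class. The ranges given for these genes are over libraries. Fibroblast-like cells had the highest pooled level for 9 of the 23. These included C1s1 (298 CPM; libraries 116 to 457) and C1ra (233 CPM; 104 to 335), the proteases that form the C1 complex with C1q, C2 (41.8 CPM; 8.34 to 53.5), C7 (131 CPM; 17.3 to 239) and Cfd (38.9 CPM; 0 to 126). For C2, mast cell-like cells were close to the fibroblasts, at 35.4 CPM (19.1 to 55.3), and the libraries overlapped. The inhibitor Serping1, which inactivates C1r and C1s, was at 1917 CPM in fibroblast-like cells (561 to 2911). It was at 2.82 CPM in lining macrophage-like cells, the next class. C1q and the C1 proteases were thus highest in different classes, with 2.29 to 6.87 CPM of the C1q genes in fibroblast-like cells, and 15.01 CPM of C1ra in interferon macrophage-like cells, its second class. The C1qa level of fibroblasts was 53.0 CPM in Leiden clusters.

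Vsig4 and Fcna had their highest pooled levels in lining macrophage-like cells, which were rich in C1q. Vsig4, a receptor for C3 fragments, was at 1105 CPM in lining (824 to 1362) and 308 CPM in resident macrophage-like cells (192 to 570). Fcna, a lectin pathway gene, was at 103 CPM in lining (56.0 to 117) and 98.2 CPM in resident macrophage-like cells (90.4 to 107), and the lectin gene Colec12 was highest in fibroblast-like cells (294 CPM; 66.7 to 385), with 149 CPM in resident macrophage-like cells (106 to 198). Fcnb was at 1154 CPM in granulocyte precursor-like and 615 CPM in immature neutrophil-like cells. C3ar1, the receptor of the fragment C3a, was at 485 CPM in Arg1 (382 to 599.9), 469 CPM in lining (412 to 557) and 451 CPM in resident macrophage-like cells. C5ar1, the receptor of C5a, was at 499.8 CPM in neutrophil-like (439 to 583) and 467 CPM in resident macrophage-like cells. Complement receptor 2 (Cr2) was at 29.2 CPM in B cell-like cells and 0.649 CPM in the next class. Of the 11 listed genes at 10 CPM or more in resident or Arg1 macrophage-like cells, 3 were separate and higher in the resident cells, against 8.97% of 8275 genes, and 0 were lower, against 4.42%. Terminal components C6, C8a, C8g and C9, and Hc (C5), stayed below 10 CPM in every class.

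**Figure D5:**
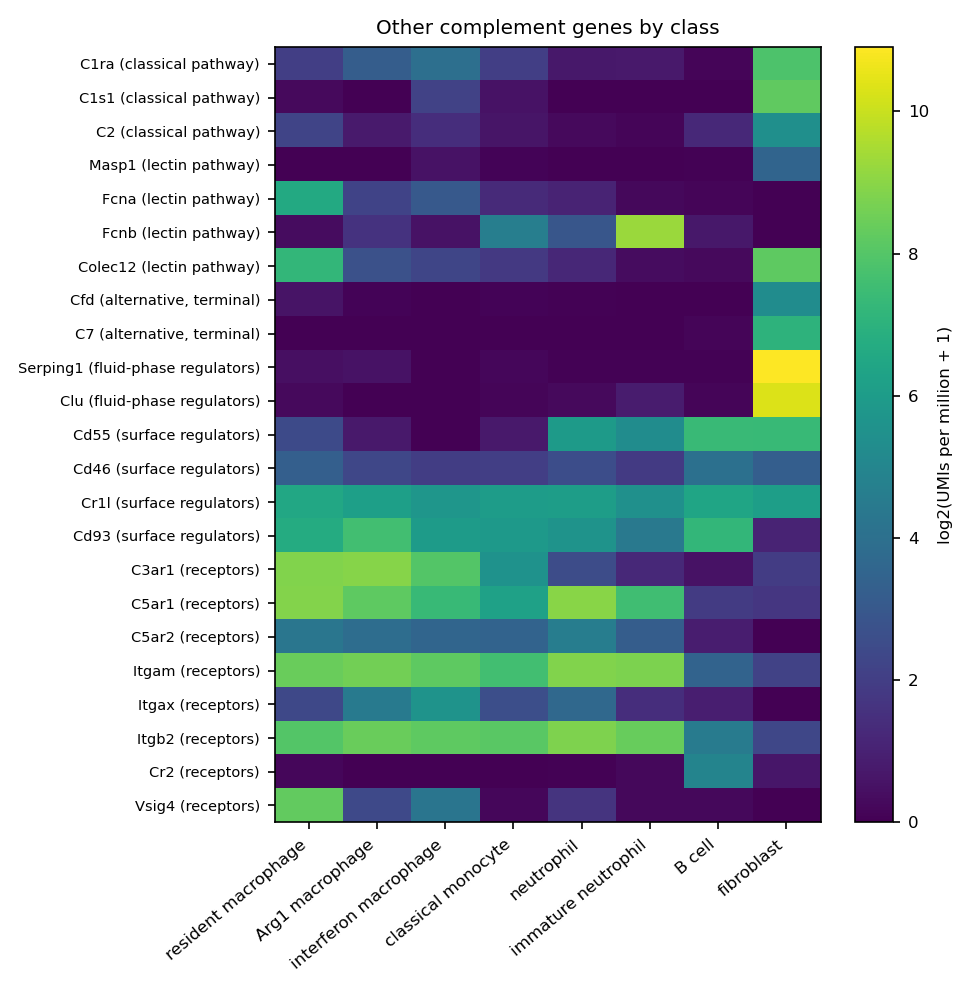
Colour map of the level of 23 other complement genes (rows, with their role) in 8 classes (columns), as log2(CPM + 1). Serping1, Clu, C1s1 and C1ra were brightest in fibroblast-like cells, and Vsig4 and Fcna were bright in resident macrophage-like cells.

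Across 21 classes, the C1q genes had nearly the same pattern, with Pearson correlations of log2(CPM + 1) of 0.987 to 0.995 between the chains. The classes share libraries and depth, so these values are descriptions. Apart from the members, the genes most like C1qa were C3ar1 (0.975), Mrc1 (0.963), Ms4a7 (0.951), Cbr2 (0.947) and Serpinb8 (0.940), of which Mrc1 and Ms4a7 are among the markers that defined the macrophage classes. C3ar1 and Mrc1 were also the 2 genes most like C1qb and C1qc. The gene most like C4b was Igf1 (0.95), followed by Colec12 (0.948), the cathepsin K gene Ctsk (0.941), Eya4 (0.941) and Cd109 (0.938). The genes most like Cfb were Mmp14 (0.932), Pdpn (0.885), Saa3 (0.883), Timp1 (0.868) and Sod2 (0.867). C3 was most like Rhou (0.852) and the haptoglobin gene Hp (0.850), and Cfp most like the adaptor Skap2 (0.920) and the receptor Pira2 (0.904). Correlations between C1qa and the members outside C1q were 0.261 for C3, 0.658 for C4b, 0.662 for Cfb and 0.689 for Cfp.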

How the data were processed

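CD45+ cells from the digested joints were profiled with 10x 3′ v3.1 chemistry on a NovaSeq. Per the labels and the study's methods, the authors aligned reads to mm10 with Cell Ranger (release 7), lowered ambient RNA with SoupX, removed doublets with DoubletFinder and filtered cells in Seurat on mitochondrial content and number of genes, and deposited 1 table of whole UMI counts per gene and cell for all samples. Entries stored as 0 were read as no UMI.

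Cells were assigned with marker gates (3 or 4 markers detected, of 4 to 7). A cell past gates of several lineages was left undecided. This gate rule was set after levels of the 7 genes under several rules had been seen, and the members and gene lists were chosen with earlier results of these data known. In counts of members, the C1q genes stand as 3 members, although they had nearly the same pattern over classes. Counts were summed per class and barcode library and scaled to CPM. Intervals are exact Poisson for sums and exact binomial for shares. Since barcode numbers could not be tied to samples, no test was run. Named genes were the 7 members, the fixed list of complement genes, class markers, and for each member the 5 genes with the highest Pearson correlation over 21 classes. Shares of positive cells were repeated on cells with at least 5000 UMIs, thinned to that number, with shallower cells left out. Classes from Leiden clusters, stricter gates, other weightings and omitted libraries were tried. Scripts were tested on simulated data. Python 3.11.15, numpy 2.4.6, scipy 1.17.1, pandas 2.3.3, scanpy 1.11.5, igraph 0.11.9 and matplotlib 3.10.9 were used. Sequences are from RefSeq. C4a and C8b were not analysed here. A further gene of the fixed list is not reported here.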

Additional observations from a re-analysis of the deposited data

Results flagged for a closer look

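Several values lay in cells that the comparisons between classes did not use. Cells past both the macrophage and a neutrophil gate held 39.1% of all C1q UMIs, and had 40.6 CPM of C4b (libraries 13.8 to 71.1) and 29.3 CPM of Cfb (libraries 3.41 to 54.2). Cells past no gate (1866 cells, with a median of 4240 UMIs) had 235 CPM of C1qa (libraries 57.7 to 490.0), against 1.27 CPM in B cell-like cells.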

How the results depend on the processing

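The shares of UMIs held by a class depended on how cells were assigned. The C1q share of macrophage-like cells (52.2%) was 52.4% with 1 marker more in every gate, 91.5% with Leiden clusters, 46.9% as the median of libraries, 61.8% with every cell scaled to the same total, and 48.3% to 53.7% when 1 library was omitted. The C3 share of fibroblast-like cells (2.26%) was 2.83% with clusters, 0.926% as the median, and 0.806% to 3.07% with a library left out. Their C4b share (11.02%) was 12.6%, 9.67% and, with equal totals, 10.3%, and 7.05% to 14.1% with a library left out. The Cfb share of macrophage-like cells (27.6%) was 32.4% with 1 marker more, 63.2% with clusters, 34.0% with equal totals, and 26.0% to 29.4% with a library left out. The Cfp share of neutrophil-like cells (19.7%) was 22.2% with 1 marker more, 17.4% as the median, 34.4% with equal totals, and 16.2% to 22.6% with a library left out. With cells of several lineages kept by the higher score, an alternative chosen after seeing the data, these shares were 73.6%, 2.66%, 12.2%, 46.3% and 26.5% in the same order. Most levels in CPM also moved beyond their counting interval. Of 42 class levels, 36 moved with Leiden clusters and 38 with cells of several lineages kept by the higher score. Of 28 levels in macrophage subclasses, 22 moved with 1 marker more in the subclass gate, and 16 with the mean over cells. With stored entries of 0 read as detected, 23 of 84 shares of positive cells moved beyond their counting interval, and with thinning 59 did. The causes were not tested, and at least 2000 UMIs per cell moved none of these 5 shares beyond its counting interval. For PBS against PEPITEM, no paired analysis was possible because the barcode numbers carry no sample or treatment. Classes of cells could be compared within each barcode library, and ratios in single libraries are given above. The rule for a separate difference used the ranges over libraries instead. C3 and Cfb were therefore not called between resident and Arg1 macrophage-like cells, although both were lower in the resident cells in every library.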
